A study of Mus musculus with 6 samples.

Results

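The 8 genes described here code for the isozymes that carry glucose from hexokinase to aldolase. They are Hk1 and Hk2 (hexokinases), Gpi1 (glucose-6-phosphate isomerase), Pfkl, Pfkm and Pfkp (the phosphofructokinase subunits named after liver, muscle and platelet), and Aldoa and Aldoc (aldolases A and C). They were chosen by name, and each symbol was matched to 1 of the 50686 Ensembl identifiers of the count tables. The samples were embryoid bodies of mouse iPSCs derived from gingival fibroblasts. Every culture had been given all-trans retinoic acid in medium with serum and was attached to gelatin-coated plates. Serum was left out for the 24 h with or without force. In 3 samples ICF, an intermittent compressive force of 1.5 g/cm2 at 0.23 Hz, was applied for 24 h, and the 3 Control samples stayed unloaded. The labels call the samples donor 1 to 3 within each group, while the methods speak of independent experiments on 1 kind of iPSC, so they may be repeats of 1 line and p-values measure the spread between these cultures. The question was which isozymes changed with ICF, by how much, and whether their proportions stayed the same.

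Upper glycolysis spends ATP to trap and prepare glucose. Hexokinase adds a phosphate to glucose and so holds it in the cell, Gpi1 turns glucose-6-phosphate into fructose-6-phosphate, phosphofructokinase adds another phosphate in the step that commits the sugar to glycolysis, and aldolase splits the product into triose phosphates. Isozymes differ in regulation and in tissue. Hk1 is the broadly expressed hexokinase, and Hk2 is the form of insulin-responsive and fast-growing cells. Pfkl, Pfkm and Pfkp assemble into tetramers of mixed composition. Aldoa is the common aldolase and Aldoc the brain form. Pluripotent cells rely strongly on glycolysis, and many genes of the pathway carry response elements for hypoxia-inducible factor (HIF), a transcription factor that binds a core of ACGTG or GCGTG.

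The 250 bases before the annotated start are printed for 5 genes, taken from RefSeq on GRCm38.p6. Hk2, Pfkp and Aldoa are shown because they fell and hold the HIF core, and Hk1 and Pfkm because they were the least changed isozymes. The 5 were thus picked by change and motif, and Gpi1, which fell and holds no core, is not printed. Hk1, Aldoa and Pfkm have more than 1 annotated start, of which 1 is printed. The printed start is the most upstream one for Hk1 and Pfkm, but not for Aldoa. An Aldoa start further upstream holds no core. The stretches are examples, and a contrast between them is not a result. Each is written 5′ to 3′ on the gene's strand, and capitals mark ACGTG or GCGTG on either strand, so that CACGT and CACGC are matches on the opposite strand. The stretches are chr6:82774455-82774704 (minus strand) for Hk2, chr13:6648772-6649021 (minus) for Pfkp, chr7:126799255-126799504 (minus) for Aldoa, chr10:62379909-62380158 (minus) for Hk1 and chr15:98092339-98092588 (plus) for Pfkm.
Hk2: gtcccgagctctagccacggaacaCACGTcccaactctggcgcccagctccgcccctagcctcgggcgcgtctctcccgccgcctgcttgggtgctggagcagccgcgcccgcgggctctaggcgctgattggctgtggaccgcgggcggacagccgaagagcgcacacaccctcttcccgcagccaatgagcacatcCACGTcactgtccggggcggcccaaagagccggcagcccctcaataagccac
Pfkp: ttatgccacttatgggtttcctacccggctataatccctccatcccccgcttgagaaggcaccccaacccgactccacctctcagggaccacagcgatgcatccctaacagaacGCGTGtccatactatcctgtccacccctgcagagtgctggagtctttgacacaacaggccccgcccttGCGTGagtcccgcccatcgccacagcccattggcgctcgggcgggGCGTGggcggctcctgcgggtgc
Aldoa: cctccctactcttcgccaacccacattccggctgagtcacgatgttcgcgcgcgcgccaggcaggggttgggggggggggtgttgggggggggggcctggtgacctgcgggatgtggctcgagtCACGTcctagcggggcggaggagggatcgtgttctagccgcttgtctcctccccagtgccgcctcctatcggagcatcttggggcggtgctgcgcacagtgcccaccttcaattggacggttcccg
Hk1: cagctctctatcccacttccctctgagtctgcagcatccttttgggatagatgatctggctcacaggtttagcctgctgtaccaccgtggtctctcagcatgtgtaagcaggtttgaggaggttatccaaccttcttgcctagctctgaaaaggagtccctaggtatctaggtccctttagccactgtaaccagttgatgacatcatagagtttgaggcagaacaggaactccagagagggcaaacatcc
Pfkm: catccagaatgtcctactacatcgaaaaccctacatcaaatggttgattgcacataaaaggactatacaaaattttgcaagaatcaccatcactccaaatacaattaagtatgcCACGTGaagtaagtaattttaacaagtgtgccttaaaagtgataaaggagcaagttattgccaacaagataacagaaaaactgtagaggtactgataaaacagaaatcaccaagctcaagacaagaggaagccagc

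In these stretches Hk2 held 2 cores, Pfkp 3 and Aldoa 1. The Hk1 start shown held none, whereas the other annotated Hk1 start had 3 before it. The capitals in Pfkm are a single palindrome, CACGTG, which counts on both strands and is also the E-box. All 8 genes had at least 1 RefSeq entry, 15 windows in all, each reaching from 250 bases before the start to 50 after it. A core lay in a window of 7 of the 8 genes, Gpi1 being the exception, and in 46.7% of the 27025 genes with an entry. A GC box (GGGCGG, both strands), the motif of Sp1-type factors, lay in a window of 6 of the 8 and in 38.2% of all genes. Hk1 and Pfkm were without one. The 27025 genes had 32851 windows, fewer per gene than the 8, so a match in any window was likelier for the 8. Of single windows, 43.8% held a core and 35.7% a GC box. The motifs can share an end base, as in Pfkp, where the core at −23 runs into the GC box at −19. The relation of either motif to the response was not tested. As values, Gpi1, without a core, had 47.7% of its Control level left with ICF, and Hk1 and Pfkm, without a GC box, had 79.7% and 87.7% and were the least changed genes. A match is a description of the letters, not of binding.

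**Figure D1:**
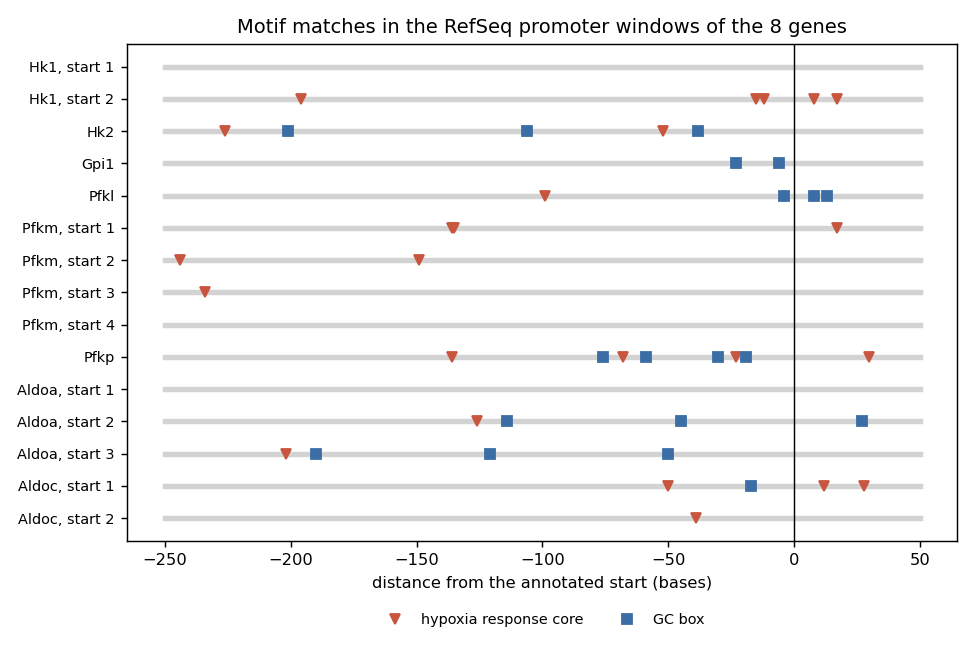
Positions of the HIF core (red triangles) and the GC box (blue squares) in the 15 RefSeq promoter windows of the 8 genes, as distance in bases from the annotated start at 0; grey lines are the windows. Pfkp holds 4 cores and 4 GC boxes close to its start, and Gpi1, 1 Hk1 start, 1 Pfkm start and 1 Aldoa start hold no core.

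The libraries held between 28711166 and 34194413 counts assigned to genes. Between 29.5% and 31.3% of the alignments tallied in counting were of reads with more than 1 place and were not assigned to genes. Whether such a read was tallied more than 1 time is not given, so this may not be a share of reads. The ICF sample 3 stood apart, since 89.0% of its nonzero gene counts could be divided by 4, a share that ran from 20.3% to 21.5% elsewhere. It had counts for 20802 genes against 24340 to 24889. Whether a count in that sample stands for 1 read cannot be told, so its depth may be lower than its total. Control sample 3 lay closer to the ICF samples than Control samples 1 and 2 for several of the 8 genes. In both samples numbered 3, 6.04% to 6.24% of the tally fell on no counted feature, against 4.09% to 4.52% in the others. Whether these reads lay inside or outside genes cannot be told. Results are therefore also given without these samples. Except for Pfkl and Aldoc, each gene overlaps another on the opposite strand (Hk1os, Gm17034, Gm26762, Senp1, Pitrm1 and Fam57b), and Pfkm also overlaps Gm26513 on its own strand. The library marks strand but the strand setting of the counting is not given. In cell type markers, the 10 genes of pluripotent cells were present at a summed 3966 to 4475 CPM in Control and 3770 to 3957 CPM with ICF, where CPM is the count after TMM scaling to a common library size. Of them, 1 (Tdgf1) fell and 9 did not pass the test, while with the sample number as a block 3 fell (Tdgf1, Klf4 and Dppa5a) and 1 rose (Dnmt3b). The 10 fibroblast and mesenchymal markers summed to 226 to 255 CPM in Control and 260.4 to 280.2 CPM with ICF (2 rose, Col1a1 and Col3a1, and 4 with the block, with Col1a2 and Twist1). The 7 markers of endoderm and liver summed to 359 to 376 CPM in Control and 353 to 394 CPM with ICF (Sox17 fell, and Gata6 rose with the block). The 7 blood markers summed to under 1 CPM in each sample, with Hbb-bt and Hbb-bs at 0. The part of these shifts in the results below was not tested, and in bulk RNA fewer cells of a type and less RNA per cell cannot be told apart.

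All 8 genes were lower with ICF. Every ICF sample lay below every Control sample for each of the 8, a pattern that 15.7% of the 16729 genes tested showed in this direction. That each gene was lower in 3 of 3 pairs of the same number follows from this order and adds nothing to it. The edgeR quasi-likelihood test called 7 of the 8 as fallen and none as risen (adjusted p under 0.05), against 4.38% of all genes called as fallen. Pfkm was the exception. With the sample number as a block, 8 of 8 were called, against 15.3% of all genes. The median log2 fold change of the 8 was −1.14, and that of all genes tested was 0.0026. None of the 8 had a positive estimate in edgeR, at any p, and DESeq2 also called 7 as fallen and none as risen. The 8 genes all passed the filter on low counts. Together they took 0.473% to 0.599% of the gene counts in Control and 0.246% to 0.256% with ICF. Leaving out ICF sample 3 kept the call count at 7, leaving out Control sample 3 gave 6, and leaving out both gave 8. Each exact permutation test of a single gene returned p = 0.1, and no lower p is possible for groups of 3.

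**Figure D2:**
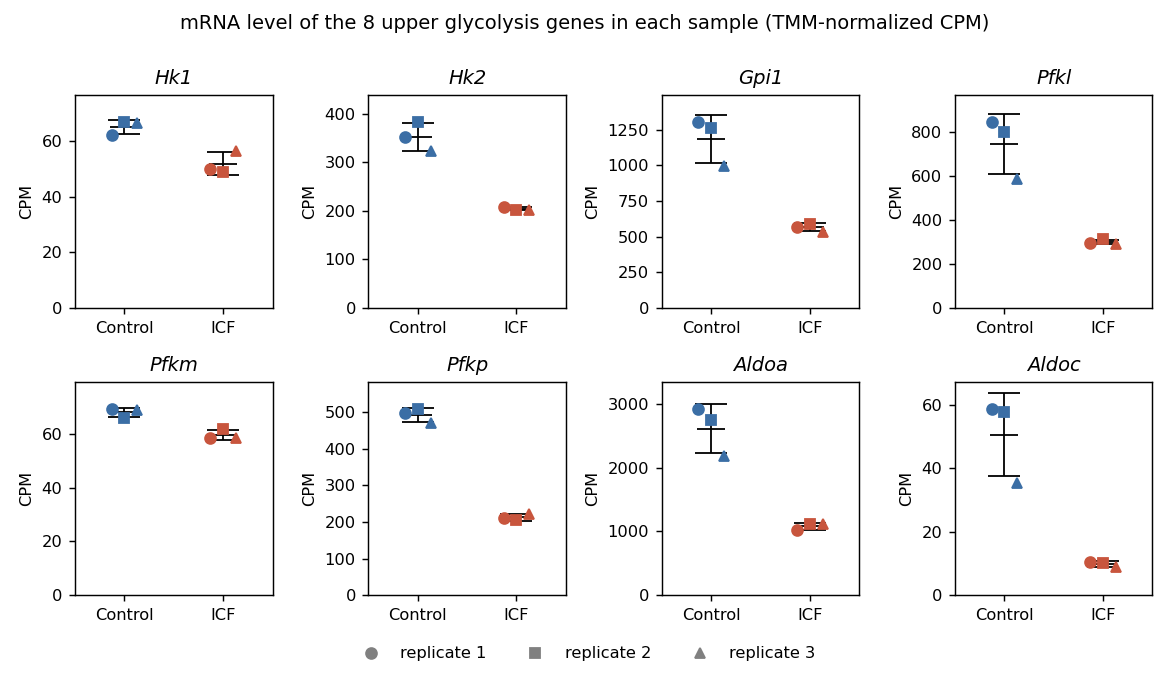
TMM-normalized CPM of each of the 8 genes in the 3 Control (blue) and 3 ICF (red) samples, with the marker shape giving the sample number and bars the mean ± SD. The groups do not overlap for any gene, and Control sample 3 lies lowest in its group for Hk2, Gpi1, Pfkl, Pfkp, Aldoa and Aldoc.

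Hexokinase is the entry step. Hk2 (ENSMUSG00000000628, chr6:82725025-82774454 of GRCm38, minus strand) measured 351, 382 and 323 CPM in Control samples 1 to 3 and 208, 203 and 202 CPM in ICF samples 1 to 3. The ICF values lay within 7 CPM of each other, far below the lowest Control sample. Means, given ± SD over the 3 samples of a group (n = 3), fell from 352 ± 29.4 to 204 ± 3.36 CPM. On the log2 scale the change was −0.79 (SE 0.07, edgeR adjusted p = 0.00071). All SEs given for genes come from the SDs of log2 CPM in both groups, not from the edgeR fit. Without ICF sample 3 the change was −0.77, and without both samples numbered 3 it was −0.84.

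Hk1 (ENSMUSG00000037012, chr10:62268855-62379908, minus strand) measured 61.9, 66.6 and 66.3 CPM in Control and 49.9, 48.9 and 56.5 CPM with ICF. The highest ICF sample, number 3, was the one nearest to Control, but the groups did not overlap. The mean fell from 64.9 ± 2.61 to 51.8 ± 4.11 CPM, a log2 fold change of −0.33 (SE 0.07, edgeR adjusted p = 0.0345). The size of this change was about the same in all settings, but its call varied. With 1 sample left out the log2 fold change stayed between −0.39 and −0.28. The edgeR adjusted p was 0.0898 without Control sample 1, 0.155 without Control 2, 0.0537 without Control 3, 0.136 without ICF 1 and 0.108 without ICF 2. It was 0.0106 without ICF sample 3, 6.5e-05 without both samples numbered 3 and 5.8e-05 with the sample number as a block, and with offsets for GC content and length it was 0.0581. The log2 ratio of Hk2 to Hk1, which compares both isozymes within a sample, changed by −0.45 (SE 0.10). It was lower in each pair, by −0.47 to −0.44, with an exact permutation p of 0.1.

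Other genes can phosphorylate glucose too. Hkdc1, a hexokinase-like gene, stood at 37.9 ± 1.93 CPM in Control and 34.4 ± 5.37 CPM with ICF and did not pass the test (edgeR adjusted p = 0.475). Hk3, the form of blood cells, had 1 count in all libraries together.

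Gpi1 (ENSMUSG00000036427, chr7:34201330-34230336, minus strand) is the only gene for its step. Its levels were 1300, 1261 and 993 CPM in Control and 568, 591 and 536 CPM with ICF. Control samples 1 and 2 were close to each other and number 3 was at 77.6% of their mean, still well above the ICF samples. The mean fell from 1185 ± 167 to 565 ± 27.7 CPM, a log2 fold change of −1.07 (SE 0.13, edgeR adjusted p = 0.00083). The change was −1.02 without ICF sample 3 and −1.18 without Control sample 3. Of the 75-base stretches of its transcript, 14.8% also occur in Gm1840 or Gm26762, so that reads from this part could be lost or misassigned.

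At the commitment step the subunits behaved unlike each other. Pfkl and Pfkp fell to 40.4% and 43.2% of their Control means, while the ICF mean of Pfkm was 87.7% of its Control mean. Pfkl (ENSMUSG00000020277, chr10:77986947-78010083, minus strand) measured 844, 800 and 588 CPM in Control and 296, 313 and 293 CPM with ICF. Control sample 3 was at 71.6% of the mean of Control 1 and 2. The mean fell from 744 ± 137 to 300.4 ± 11.0 CPM, with a log2 fold change of −1.31 (SE 0.17, edgeR adjusted p = 0.00083). Leaving out Control sample 3 gave −1.45, and leaving out ICF sample 3 gave −1.28.

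Pfkp (ENSMUSG00000021196, chr13:6579768-6648777, minus strand) measured 497, 508 and 471 CPM in Control and 211, 205 and 222 CPM with ICF. Its Control samples differed less than those of Pfkl, number 3 being at 93.7% of the other 2. The mean fell from 492 ± 19.0 to 213 ± 9.01 CPM, a log2 fold change of −1.21 with an SE of 0.05, and its edgeR adjusted p, 0.00011, was the lowest of the 8. The change was −1.24 without ICF sample 3 and −1.27 without both samples numbered 3.

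Pfkm (ENSMUSG00000033065, chr15:98092589-98132451, plus strand) measured 69.2, 66.2 and 69.0 CPM in Control and 58.5, 61.9 and 58.7 CPM with ICF. The groups did not overlap, but the highest ICF sample came within 5 CPM of the lowest Control sample. The means were 68.1 ± 1.71 and 59.7 ± 1.90 CPM, and the log2 fold change of −0.19 (SE 0.03) did not pass the edgeR test (adjusted p = 0.0871). With the sample number as a block the estimate was again −0.19 and the adjusted p was 0.0112, so that Pfkm then counted as fallen. DESeq2 gave 0.070 without and 0.0382 with the block, and leaving out both samples numbered 3 gave 0.0287. No sample left out alone brought it past the threshold (edgeR adjusted p 0.121 to 0.273). Pfkm is also the muscle isozyme, and the 10 markers of striated muscle and heart summed to 12.1 to 15.2 CPM in Control and 16.6 to 18.4 CPM with ICF, where of 5 tested Tnnt2 rose and Myl7 fell. Their part in the Pfkm level was not tested.

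Pfkfb3 makes fructose-2,6-bisphosphate, the strongest activator of phosphofructokinase. It fell from 31.5 ± 3.06 to 11.9 ± 2.78 CPM, a log2 fold change of −1.41 (SE 0.20, edgeR adjusted p = 0.0017). Its relative Pfkfb4 stood at 5.24 and 5.66 CPM and did not pass (edgeR adjusted p = 0.694), and it is named here after its values were seen.

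The aldolases close upper glycolysis. Aldoa (ENSMUSG00000030695, chr7:126795234-126800751, minus strand) was the most abundant of the 8, with 2916, 2750 and 2179 CPM in Control and 1021, 1112 and 1111 CPM with ICF. The Control sample 3 again lay nearest to ICF, at 76.9% of Control 1 and 2. The mean fell from 2615 ± 387 to 1081 ± 52.3 CPM, a log2 fold change of −1.27 (SE 0.13, edgeR adjusted p = 0.00054). It was −1.29 without ICF sample 3 and −1.39 without Control sample 3. By exact match, the retrogene Aldoart1 shares a few of the Aldoa stretches (1.5% of Aldoa with all partners).

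Aldoc (ENSMUSG00000017390, chr11:78322968-78327781, plus strand) had the largest change of the 8. It measured 58.5, 57.7 and 35.4 CPM in Control and 10.5, 10.1 and 8.84 CPM with ICF. Control samples differed from one another more than for any other of the 8 genes, number 3 being at 61.0% of the other 2, yet each stood well above the highest ICF sample. The mean fell from 50.5 ± 13.1 to 9.79 ± 0.85 CPM, 5.16-fold, with a log2 fold change of −2.37 (SE 0.25, edgeR adjusted p = 0.00051). Of the 16729 genes tested, 24 had a lower log2 fold change. Leaving out ICF sample 3 gave −2.29 and leaving out Control sample 3 gave −2.57. Aldoc is a brain isozyme, and the 10 neural markers summed to 143 to 165 CPM in Control and 131.5 to 143.1 CPM with ICF, where 1 of 7 tested (Elavl3) fell and none passed as risen. With the sample number as a block 3 neural markers rose (Nes, Dcx and Map2, which had unadjusted p under 0.05 without it) and 2 fell (Elavl3 and Tubb3). The part of neural cells in the Aldoc change was not tested.

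**Figure D3:**
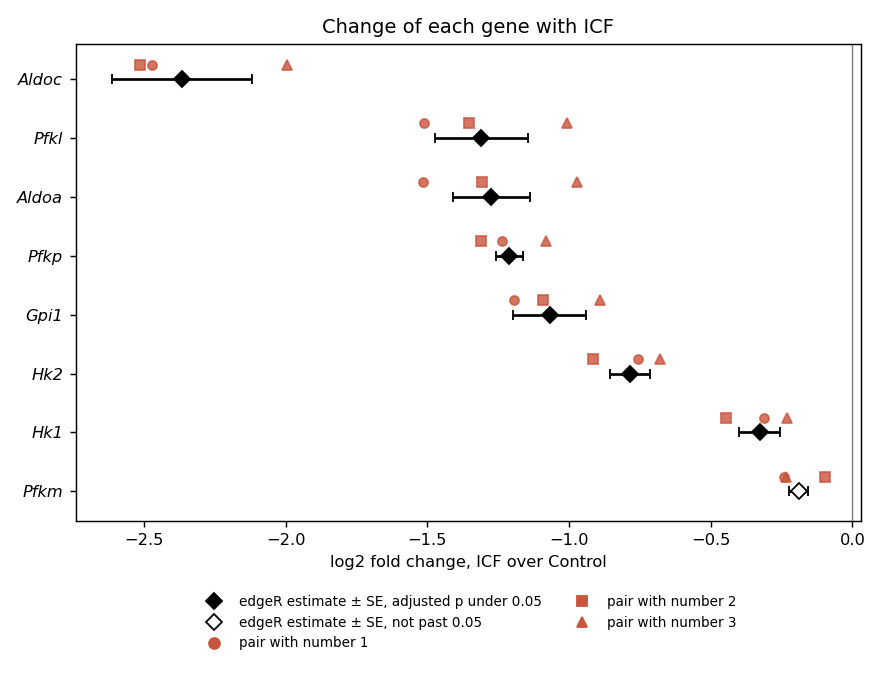
Log2 fold change of ICF over Control for each gene. Diamonds are edgeR estimates ± SE (filled where the adjusted p is under 0.05), and red symbols are the log2 differences of the samples with the same number. Estimates run from −0.19 for Pfkm (open) to −2.37 for Aldoc, and the pair numbered 3 shows the smallest fall for 7 genes, Pfkm being the exception.

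Levels of different genes were compared as CPM per kilobase of all annotated exons. In Control the order was Aldoa (898 ± 133), Gpi1 (183.6 ± 25.9), Pfkl (111.5 ± 20.5), Hk2 (59.0 ± 4.92), Pfkp (36.7 ± 1.42), Pfkm (20.4 ± 0.51), Aldoc (15.5 ± 4.01) and Hk1 (7.61 ± 0.31). With ICF the first 4 kept their order at 371 ± 18.0, 87.6 ± 4.30, 45.0 ± 1.65 and 34.2 ± 0.56, followed by Pfkm (17.9 ± 0.57), Pfkp (15.9 ± 0.67), Hk1 (6.07 ± 0.48) and Aldoc (3.00 ± 0.26). No neighbours in either order overlapped between their 3 samples. So Pfkm passed Pfkp, and Hk1 passed Aldoc. The order depended in part on the length used: the annotated exons of Pfkp add up to 13401 bases and those of Pfkm to 3340, while their coding lengths are 2352 and 2340 bases. Per kilobase of coding length Pfkp stayed above Pfkm, at 209 against 29.1 in Control and 90.4 against 25.5 with ICF. On that scale Pfkp also stood above Hk2 in both groups, and Aldoc (46.4) stood above Pfkm (29.1) in Control and below it with ICF (8.99 against 25.5). The turn of Hk1 and Aldoc held on both scales.

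Within hexokinase, Hk2 was the major form in every sample. It made up 89.0%, 89.1% and 87.5% of the Hk1 and Hk2 level per exon length in Control and 85.6%, 85.5% and 83.6% with ICF. The groups did not overlap, and the mean share was 88.5 ± 0.94% in Control and 84.9 ± 1.13% with ICF. In a total of these 2 genes Hk1 holds the rest, 11.5% in Control and 15.1% with ICF. With Hkdc1 and Hk3 in the total, the Hk2 share was 79.7 ± 1.07% and 72.8 ± 1.08%, a change of −6.86 percentage points against −3.60 with 2 genes. Hkdc1 then went from 9.99% to 14.2%, a larger gain than that of Hk1 (10.3% to 12.9%), although neither gene had a higher mean CPM with ICF (exact permutation p = 0.1 for each share). Per coding length the Hk2 shares were 84.8% and 80.3%.

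Within phosphofructokinase the share of Pfkm was higher in each ICF sample. It was 11.3%, 11.1% and 14.4% in Control and 22.6%, 23.0% and 22.5% with ICF, with means of 12.3 ± 1.82% and 22.7 ± 0.24% (exact permutation p = 0.1). The mean share of Pfkl was 65.8 ± 3.98% in Control and 57.1 ± 0.96% with ICF, and that of Pfkp 22.0 ± 2.21% and 20.2 ± 1.19%. On coding length the Pfkm share was 5.29 ± 0.73% and 10.4 ± 0.23%, again without overlap, whereas the Pfkl shares overlapped (56.8 ± 4.06% and 52.5 ± 1.51%, exact permutation p = 0.3). The higher share of Pfkm was thus seen with both lengths, and the separation of the Pfkl shares was seen with exon length alone. Pfkm itself was not higher with ICF in any sample, and Pfkl and Pfkp fell.

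Within aldolase, Aldoc made up 1.76%, 1.84% and 1.43% in Control and 0.907%, 0.800% and 0.704% with ICF. Its mean share was 1.68% in Control and 0.804% with ICF, and Aldoa held the rest, at 98.3% and 99.2%. The groups did not overlap, although Aldoa fell strongly as well.

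**Figure D4:**
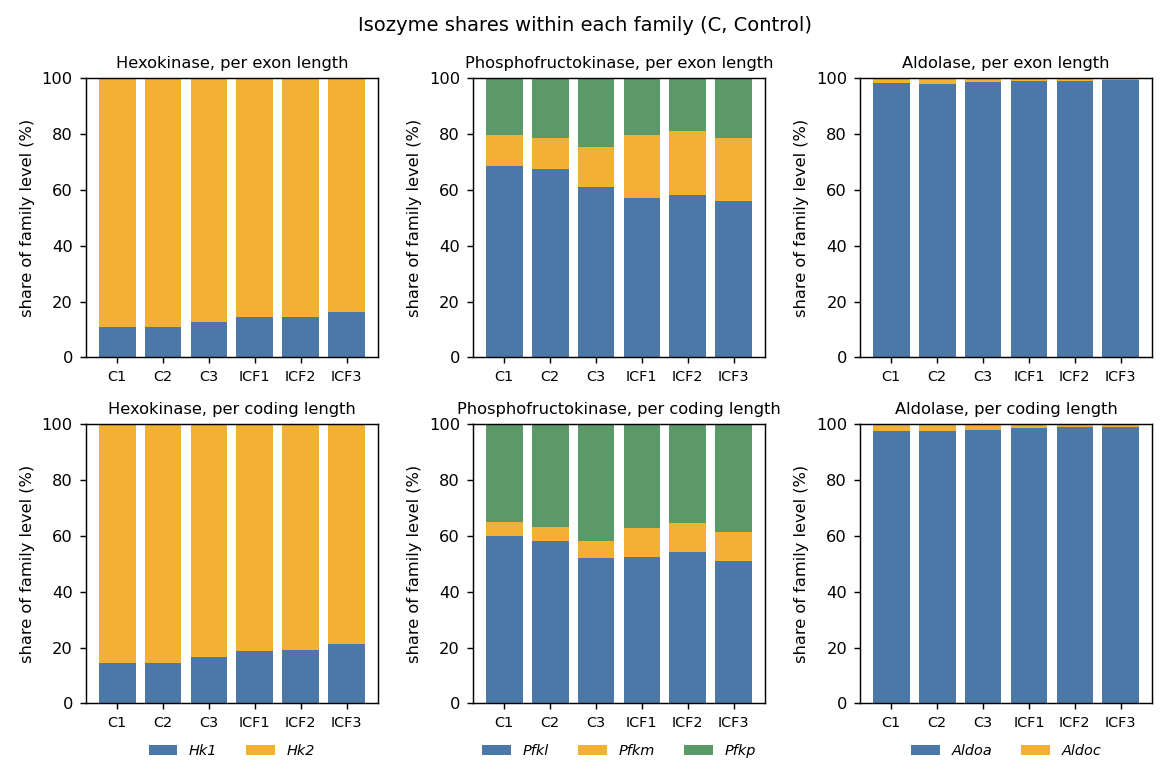
Share of each isozyme in the summed level of its family, in percent, for Control samples 1 to 3 (C1 to C3) and ICF samples 1 to 3, per exon length (top) and per coding length (bottom). The Pfkm share is 11.1% to 14.4% in Control and 22.5% to 23.0% with ICF on exon length, and the Hk2 share is lower in the 3 ICF samples on both scales.

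The change of an isozyme ratio between groups depends neither on library scaling nor on the length chosen, and 5 ratios were tested. The log2 ratio of Pfkm to Pfkl was −2.61, −2.60 and −2.09 in Control and −1.34, −1.34 and −1.32 with ICF, a change of 1.10 (SE 0.17). The ICF samples were nearly identical in this ratio, and Control sample 3 was the nearest to them. The log2 ratio of Pfkp to Pfkm was 0.84, 0.94 and 0.77 in Control and −0.15, −0.28 and −0.08 with ICF, a change of −1.02 (SE 0.08). The log2 ratio of Aldoc to Aldoa was −5.80, −5.74 and −6.11 in Control and −6.77, −6.95 and −7.14 with ICF, a change of −1.07 (SE 0.16). These 3 ratios and that of Hk2 to Hk1 separated the groups, each with an exact permutation p of 0.1, the smallest possible, and 0.125 after adjustment over 5. The phosphofructokinase ratios share genes, so they are not independent of each other. How many other gene pairs would separate the groups was not counted. The ratio of Pfkp to Pfkl overlapped between the groups, with a change of 0.08 (SE 0.15, exact permutation p = 0.7, 0.7 adjusted over 5), and its 3 pairs went both ways (0.28, 0.04 and −0.08). Without ICF sample 3 the changes were −0.38 for Hk2 to Hk1, 1.09 for Pfkm to Pfkl, −1.07 for Pfkp to Pfkm, −0.98 for Aldoc to Aldoa and 0.03 for Pfkp to Pfkl.

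**Figure D5:**
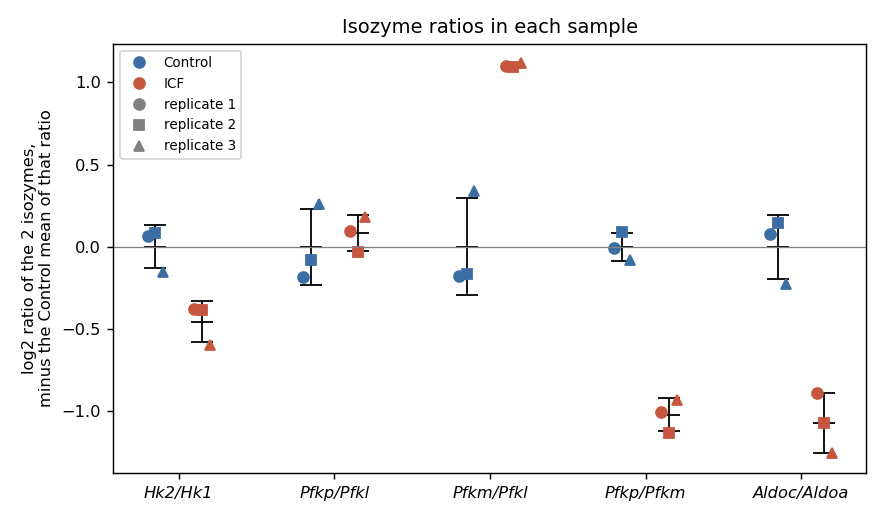
Log2 ratio of 2 isozymes in each sample, minus the Control mean of that ratio, for 3 Control (blue) and 3 ICF (red) samples, with bars for the mean ± SD. The groups separate for 4 of the 5 ratios and overlap for Pfkp to Pfkl. The phosphofructokinase ratios share genes, and how often other gene pairs separate was not counted.

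The summed level of the 8 genes per exon length was 1471, 1407 and 1119 CPM per kilobase in Control and 560.2, 597 and 586 with ICF. The mean was 1332 ± 188 in Control and 581 ± 18.8 with ICF, which left 43.6% of the Control level (log2 change −1.19, SE 0.13, exact permutation p = 0.1), and 43.6% per coding length too. By step, 60.5% of the hexokinase level was left, 47.7% of Gpi1, 46.7% of phosphofructokinase and 41.0% of aldolase. Most of the difference was Aldoa, which made up 67.4% of the sum in Control and 70.1% of the difference (61.1% per coding length). Gpi1 accounted for 12.8% of it, Pfkl for 8.85%, Hk2 for 3.30%, Pfkp for 2.78% and Aldoc for 1.66%. Aldoc therefore had the largest fold change and a small part in the total. Pfkm and Hk1 accounted for 0.34% and 0.21%.

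Other genes of glucose use were compared by lists. In the 4 lists given here no gene was called as risen by edgeR or DESeq2, and none had a positive change at an unadjusted p under 0.05. Of 12 lower glycolysis genes, from triose phosphate isomerase to lactate dehydrogenase, 6 fell, none rose and the median log2 fold change was −0.75 (8 fell with the block). Over all genes tested, 4.38% fell, and 15.3% with the block. Gapdh was among those not called, at only 22.8 CPM in Control and 22.3 CPM with ICF. Reads aligned to more than 1 place were not counted, and their part in the Gapdh level was not tested. Ldha, which makes lactate, fell from 1559 ± 261 to 482 ± 11.9 CPM (log2 fold change −1.69, SE 0.15, edgeR adjusted p = 0.00031). Pgk1, which makes ATP in the payoff phase, fell from 785 ± 121 to 279 ± 9.41 CPM (−1.49, SE 0.14, edgeR adjusted p = 0.00033), with 67.5% of its 75-base stretches shared with other genes.

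Of 5 glucose transporter genes 4 were tested, 2 fell and none rose (median −0.30). The facilitative transporter Slc2a1 fell from 1040 ± 207 to 385 ± 20.1 CPM (log2 fold change −1.43, SE 0.18, edgeR adjusted p = 0.00081). Slc2a3, a transporter of high affinity, fell from 2276 ± 257 to 1573 ± 22.1 CPM (−0.53, SE 0.10, edgeR adjusted p = 0.0075). Its call was lost without Control sample 2 (adjusted p = 0.0525).

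Of the enzymes that oppose these steps or lead away from their intermediates, 3 of 14 tested fell and none rose (median −0.09), 5 fell with the block, and 2 fell when any 1 of Control samples 1 and 2 and ICF samples 1 and 2 was left out. The phosphoglucomutase Pgm1, which links glucose-6-phosphate to glycogen, and its relative Pgm2 were among them. Pgm1 fell from 152 ± 40.4 to 53.3 ± 6.55 CPM (log2 fold change −1.51, SE 0.27, edgeR adjusted p = 0.0027), and Pgm2 from 89.1 ± 2.01 to 66.9 ± 1.17 CPM (−0.41, SE 0.02, edgeR adjusted p = 0.0043). Of the 16 hypoxia response genes 15 fell and none rose, at a median of −1.23. With the block 16 fell, and 11 to 15 when 1 sample was left out, the lowest being without Control sample 2. Over all genes tested, 4.38% fell, and 15.3% with the block. For the upper glycolysis genes, 7 of 8 were called, at a median of −1.14. The hypoxia list was chosen with earlier results of these data known, so its count is a description. Its link to the 8 genes was not tested. Adm, adrenomedullin, fell from 11.4 ± 4.05 to 0.681 ± 0.156 CPM (log2 fold change −4.08, SE 0.38, edgeR adjusted p = 0.00054), and Ankrd37 from 43.7 ± 12.5 to 5.54 ± 0.61 CPM (−2.98, SE 0.28, edgeR adjusted p = 0.00035). For both, Control sample 3 was the lowest Control sample, as for 6 of the 8 upper glycolysis genes. It was not the lowest for the hypoxia response genes Vegfa, Kdm3a and Car12. It was the lowest for pluripotency markers such as Pou5f1, Nanog and Sox2, but not for Zfp42, Lin28a and Dnmt3b. The share of all genes with this order was not counted.

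The genes whose pattern was most like that of the 8 together were found by the root mean square distance of log2 values over the 6 samples, after centring, from the summed CPM of the 8. Among 11843 genes outside the lists the median distance was 0.604. The nearest were Epm2a (0.045), which codes for the glycogen phosphatase laforin, Fndc1 (0.072), Aldoart1 (0.081), Ndrg2 (0.089) and Anxa2 (0.092). Epm2a measured 7.22, 7.25 and 5.36 CPM in Control and 2.99, 3.06 and 2.90 CPM with ICF. Aldoart1 shares 1.0% of its stretches with Aldoa by exact match, and its log2 fold change was −1.27, as for Aldoa. Whether reads of Aldoa were counted for Aldoart1 was not tested. The nearest genes were picked for their likeness, so their values are a description.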

How the data were processed

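RNA sequencing measured mRNA in 3 ICF and 3 Control samples, from a strand-specific single-end library of each. Per the labels, the authors ran bcl2fastq 2.19, FastQC, Trimmomatic, HISAT2, HTSeq and DESeq2, and the builds hg38 and GRCm38 are both named; the annotation release and the HTSeq strand setting are not given in the sources used here. The authors deposited read counts per gene, without normalization, for each sample. For ICF sample 3 it cannot be told whether a count stands for a single read. HTSeq leaves out reads that align to several places or fall on several genes, and these took 29.5% to 31.3% and 0.90% to 0.96% of the alignments tallied.

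Names, coordinates and lengths came from GENCODE M21 (GRCm38, primary assembly), which held 50462 of 50686 identifiers. Counts were tested with edgeR 4.0.16 in R 4.3.3 (TMM, filterByExpr, glmQLFit and glmQLFTest, Benjamini-Hochberg over all 16729 genes tested, threshold 0.05), on all 6 samples and with no covariate. The fit was tested on simulated data. CPM are TMM-normalized. Levels per kilobase divide CPM by the bases of all annotated exons, or by the longest coding length. Shares and ratios were compared by exact two-sided permutation tests over samples. Means are ± SD with n = 3.

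The alternatives were DESeq2 1.42.0, size factors of the RLE kind, a filter at 1 count in any sample or at 10 counts in every sample, the sample number as a block, GC and length offsets, leaving out each sample, leaving out both samples numbered 3, dividing the counts of ICF sample 3 by 4 and, added after seeing the data, number 3 as a batch, lengths without shared stretches and a hexokinase total with Hkdc1 and Hk3. The numbers were taken to pair the samples, from the labels' donor numbers and from correlations of deviations from the group means over the genes tested. Same-numbered samples correlated at 0.15, 0.20 and 0.38. Samples 1 and 2 also correlated with each other's numbers (0.17 and 0.26). The correlations therefore set number 3 apart but do not tell a pairing of 1 and 2.

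The 8 genes and the context and marker lists were chosen with earlier results of these data known. The named genes were all 8, then the 2 genes with the largest absolute log2 fold change of each context list, any gene past the threshold against its list's median, and the 5 most alike in pattern. Of the list of other isozymes and regulators, some results are not reported here. The lowest count of any of the 8 genes in a sample was 256 (Aldoc, ICF sample 3).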

Additional observations from a re-analysis of the deposited data

How the results depend on the processing

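Of the 8 genes, Hk2, Gpi1, Pfkl, Pfkp, Aldoa and Aldoc kept their direction and their side of the threshold under all 17 alternatives run on single genes. The change of the summed level kept its direction in all 13 of its alternatives (−1.31 to −1.11). Between 6 and 8 genes were called across settings and none rose. Hk1 lost its call with GC and length offsets and without each of 5 samples, and Pfkm gained one with the replicate block (−0.19), with DESeq2 and the block (−0.20), with GC and length offsets and the block (−0.14), without both samples numbered 3 (−0.17) and with number 3 as a batch (adjusted p = 0.0046). The replicate block changed no other call among the 8. The change of the log2 ratio of Pfkp to Pfkl ran from −0.010 (without Control sample 1) to 0.21 when single samples were left out, so its direction turned without that sample; the cause was not tested. The other 4 ratios kept their sign under all alternatives. The Hk2 share changed by −6.86 percentage points with Hkdc1 and Hk3 in the total, an alternative chosen after seeing the data, against −3.60. Of 16 hypoxia response genes, 11 to 15 were called when 1 sample was left out. The count of fallen opposing and branch enzymes was 3 as reported and 5 or 6 under DESeq2, the looser filter, the block or both samples numbered 3 left out, and 2 to 4 when 1 sample was left out.

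Over all genes, 580 were called as risen and 733 as fallen. DESeq2 called 1948 in all, the block 5006, DESeq2 with the block 3020, GC and length offsets 2323 (5259 with the block), both samples numbered 3 left out 5093 and number 3 as a batch 5699. Leaving out single samples gave 300 to 1652 calls. Among calls 44.2% had risen, against 56.2% with GC and length offsets and 28.3% to 45.2% without single samples. With 3 samples a group, single values cannot reach an exact permutation p under 0.1.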
